A study of Mus musculus with 9 samples.

Results

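Chemokines are small secreted proteins that set the direction in which leukocytes move, and the 10 chemokine genes described here were Ccl2, Ccl5, Ccl7, Ccl20, Cxcl1, Cxcl2, Cxcl5, Cxcl10, Cxcl12 and Cx3cl1. They were taken by name from the gene probes of a mouse expression array, where they are represented by 14 of 41174 probes. Of these, 12 probes of 9 genes gave signals well above background on each of the 9 arrays, so no member entered the tests through a treated group alone. The exception among the genes was Cxcl2, whose single probe was not well above background on any of the 9 arrays. Tests were run over 16733 genes, each represented by its brightest probe.

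Each chemokine binds receptors on particular leukocytes: Ccl2 and Ccl7 draw monocytes through CCR2, Cxcl1, Cxcl2 and Cxcl5 draw neutrophils through CXCR2, Cxcl10, through CXCR3, and Ccl5 draw activated T cells, and Ccl20 draws cells with CCR6. Cxcl12 retains progenitor cells through CXCR4, and Cx3cl1 is a membrane-bound ligand that is shed by proteases and binds CX3CR1. In fibroblasts and preadipocytes most of these genes can be induced by cytokines or microbial products through NF-kB, AP-1, C/EBP and interferon-activated factors. Preadipocytes are a known source of Ccl2 in adipose tissue.

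The samples were 3T3-L1 preadipocytes, a clonal mouse fibroblast line that can be turned into adipocytes in culture. All cultures were grown in 10% fetal bovine serum and deprived of serum for 48 h. They were then left untreated (control) or given X-1 or X-3, both named in the series title as derivatives of mangiferin, a plant xanthone glucoside, at 70 µM for 24 h, with 3 arrays in each of the 3 groups and no vehicle named for the controls. Same-numbered replicates of the groups lay on the same slide, here called slides 1, 2 and 3, and each group held the same position on every slide, so effects of position cannot be told apart from those of the group. The series design text speaks of independent experiments. The p-values below measure the spread between these arrays.

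The values are log2 intensity minus the 75th percentile of the same array, and a probe is compared only with itself across arrays, since probes differ in brightness for equal amounts of RNA. The spots well above background made up 57.9% to 67.1% of each array, none was saturated, and the small number of arrays limits the precision. All 9 fibroblast and preadipocyte markers examined were well above background on every array, while Lep and Cfd of mature adipocytes, Pecam1, Cdh5 and Kdr of endothelium and Epcam and Cdh1 of epithelium were at background on all arrays. Adipoq, Plin1 and Cidec of adipocytes were above it on 3, 2 and 4 of the 9 arrays, Tek of endothelium on 9 and Krt18 of epithelium on 4. The log2 of the summed linear levels of the 5 adipocyte markers was −5.29 to −5.00 on control, −4.40 to −3.94 on X-1 and −4.06 to −3.75 on X-3 arrays. Of 7 leukocyte markers, Adgre1 and Itgam were at background on all 9 arrays and Ptprc was above it on 1, while Cd68, Csf1r, Cd14 and Cd3e were above it on all. The same measure of these 7 was 0.70 to 0.99 on control, 1.5 to 1.75 on X-1 and 1.79 to 1.94 on X-3 arrays. Cd14 weighs most in it, with a control mean of 0.44 against −2.31 for Csf1r, the next brightest. The adipocyte and leukocyte sums thus moved with treatment. For the 3 epithelial markers the measure was −6.30 to −5.25 on control, −5.78 to −4.79 on X-1 and −4.65 to −4.42 on X-3 arrays. The adipocyte and epithelial sums are of probes mostly at background.

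Treatment with either compound was accompanied by higher mRNA of 7 of the 9 measured chemokines: Ccl2, Ccl5, Ccl7, Ccl20, Cxcl1, Cxcl10 and Cx3cl1. In X-1 against control, 7 members were called higher, 1 lower (Cxcl5) and 1 neither (Cxcl12) at an adjusted p under 0.05 in limma, a linear model fitted to all genes and all 9 arrays with Benjamini-Hochberg adjustment. The background is high: 56.5% of all genes tested were called in this comparison, 28.2% as higher and 28.3% as lower. In X-3 against control, 7 members were called higher, 0 lower (0 also at an unadjusted p under 0.05) and 2 neither, against 55.7% of all genes called, 29.3% as higher and 26.4% as lower. A call alone is therefore common in these data, and the sizes say more. The median log2 difference of the members was 2.04 for X-1 and 1.88 for X-3, where the median of all genes was 0.06 in both comparisons. Being higher by at least 1 on the log2 scale and called was true of 15.2% of all genes for X-1 and 14.4% for X-3. Of the 7 members called higher, all but Ccl7 (0.49 with X-1 and 0.96 with X-3) reached that size with both compounds. The 3 arrays of a treated group lay wholly apart from the controls for 9 of 9 members with X-1, against 68.5% of all genes, and for 7 of 9 with X-3, against 62.2%. Both comparisons use the same 3 control arrays, so they are not independent of each other.

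How arrays were scaled matters for the size of these differences, and for the calls of the smaller ones. Scaling by the array median in place of the 75th percentile moved the median of all genes to −0.16 for X-1 and −0.17 for X-3, and the counts of all genes called from 4718 higher and 4734 lower to 3105 and 5246 for X-1, and from 4902 and 4411 to 3047 and 5006 for X-3. Scaling by spike-in RNA, possible on slides 2 and 3, moved the median of all genes to −0.86 and −0.66 and the counts to 1510 higher and 10090 lower for X-1 and 1834 and 8401 for X-3. Under that scaling Ccl5, Ccl20, Cxcl1, Cxcl10 and Cx3cl1 were still called higher with both compounds, at 1.11 to 2.93 on the log2 scale, while Ccl2 and Ccl7 were not.

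**Figure D1:**
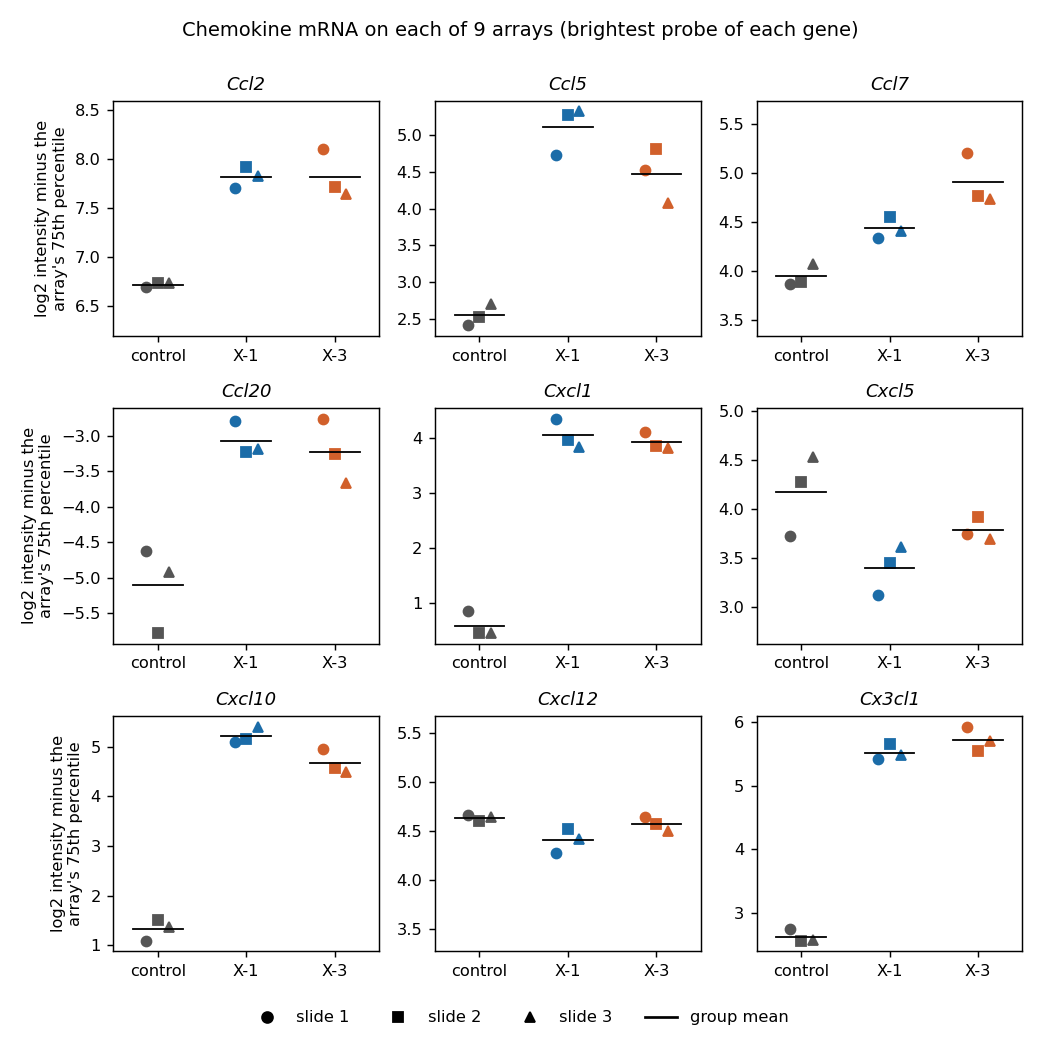
Normalized log2 intensity (y axis, log2 intensity minus the 75th percentile of the array) of the brightest probe of 9 chemokine genes in the control, X-1 and X-3 groups (x axis). Each point is 1 array, its shape gives the slide and the line is the group mean; every X-1 array lies above every control array in 7 panels and below it in those of Cxcl5 and Cxcl12.

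Among the members that draw T cells, Cxcl10 had the widest gap to control for X-1. Its log2 level was 1.09, 1.51 and 1.37 on the control arrays of slides 1, 2 and 3, 5.10, 5.17 and 5.41 with X-1, and 4.95, 4.57 and 4.50 with X-3. All 6 treated arrays were far above the 3 controls, and the X-3 arrays all lay below the X-1 arrays. X-1 raised Cxcl10 15.0-fold (95% confidence interval 11.5 to 19.6, limma adjusted p = 4.6e-07) and X-3 raised it 10.2-fold (7.80 to 13.3, adjusted p = 1.2e-06). This placed Cxcl10 above 99.3% and 98.9% of all genes by log2 difference. Spike-in scaling took its log2 differences from 3.905 to 2.93 for X-1 and from 3.35 to 2.38 for X-3.

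Ccl5 is read by 2 probes, at chr11:83339296-83339355 and chr11:83339447-83339502 (mm9, minus strand). With the brighter probe its log2 level was 2.41, 2.52 and 2.71 in controls, 4.73, 5.27 and 5.32 with X-1 and 4.53, 4.80 and 4.07 with X-3. Treated and control arrays did not overlap, whereas the X-1 and X-3 arrays did. The log2 difference from control was 2.56 ± 0.22 (SE, n = 3 a group, limma adjusted p = 1.5e-05) for X-1 and 1.92 ± 0.22 (adjusted p = 1.0e-04) for X-3. The second probe gave log2 differences of 2.63 and 2.27, so both probes of Ccl5 rose with both compounds.

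Of the neutrophil chemokines, Cxcl1 rose, Cxcl5 was lower with X-1, and Cxcl2 was not measurable. Cxcl1 stood at a log2 level of 0.85, 0.45 and 0.45 in controls, 4.36, 3.98 and 3.84 with X-1, and 4.12, 3.86 and 3.83 with X-3. The treated arrays lay within about the same range for both compounds, well clear of the controls. This was an 11.1-fold rise with X-1 (95% confidence interval 8.42 to 14.7, limma adjusted p = 8.2e-07) and a 10.2-fold rise with X-3 (7.73 to 13.5, adjusted p = 1.4e-06). Within the slides the log2 differences of Cxcl1 spanned only 3.39 to 3.53 for X-1 and 3.27 to 3.41 for X-3. Spike-in scaling took the log2 differences of Cxcl1 from 3.475 to 2.54 for X-1 and from 3.35 to 2.68 for X-3.

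Cxcl5, a ligand of the same receptor, was well above background in every group and went the other way with X-1. Its log2 level was 3.72, 4.28 and 4.53 in controls, 3.13, 3.46 and 3.61 with X-1, and 3.75, 3.93 and 3.70 with X-3. The X-1 arrays were all below the controls, whereas X-3 overlapped with them. Cxcl5 fell by 0.78 ± 0.22 on the log2 scale (SE, limma adjusted p = 0.0125) with X-1, or by 1.79 under spike-in scaling, and the X-3 difference of −0.39 ± 0.22 (adjusted p = 0.154) did not pass the threshold. The control of slide 1 was the lowest of its group, and without it X-3 was called lower too (−0.62, adjusted p = 0.0206), as it was without slide 1 (−0.60, adjusted p = 0.00909) and with spike-in scaling (−1.31, adjusted p = 4.6e-05). The probe of Cxcl2 gave processed intensities of 2.58 to 9.33 on the 9 arrays, so no level or fold is given for this gene.

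The monocyte chemokines Ccl2 and Ccl7 lie next to each other on chromosome 11 and rose by less. Ccl2, printed on 10 spots of each array, had a log2 level of 6.69, 6.74 and 6.73 in controls, 7.71, 7.92 and 7.82 with X-1, and 8.10, 7.71 and 7.65 with X-3. The controls were nearly equal and all treated arrays were higher, with X-3 on slide 1 the highest. The rise was 2.14-fold with X-1 (limma adjusted p = 1.6e-04) and 2.15-fold with X-3 (adjusted p = 1.9e-04), each with an SE of 0.14 on the log2 scale. Under spike-in scaling these log2 differences were 0.22 (adjusted p = 0.516) and 0.23 (adjusted p = 0.513), and the Ccl2 calls were lost.

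Ccl7 is read by 2 probes, at chr11:81860656-81860715 and chr11:81860504-81860563 (mm9, plus strand). The brighter one gave log2 levels of 3.87, 3.89 and 4.08 in controls, 4.34, 4.56 and 4.41 with X-1, and 5.21, 4.77 and 4.74 with X-3. The 3 groups did not overlap, in the order control, X-1, X-3, and the same held for the second probe, with levels of 2.37, 2.57 and 2.76, then 3.07, 3.16 and 3.09, then 3.95, 3.88 and 3.94. X-3 raised Ccl7 by 0.96 ± 0.15 (SE, limma adjusted p = 6.8e-04) with the brighter probe and by 1.36 ± 0.13 (adjusted p = 3.5e-05) with the other, although spike-in scaling brought the former to 0.05 (adjusted p = 0.886). For X-1 the difference of 0.49 ± 0.15 (adjusted p = 0.0225) passed, but it turned to −0.42 (adjusted p = 0.198) under spike-in scaling. It also missed the threshold under median scaling (0.27, adjusted p = 0.366), without the filter on dim probes (adjusted p = 0.0573), and when any 1 of 4 arrays was left out (the controls of slides 1 and 2 and the X-1 arrays of slides 2 and 3), at 0.43 to 0.50 (adjusted p = 0.0523 to 0.0787).

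Ccl20, which draws dendritic and Th17 cells, was the dimmest member that could be measured, with processed intensities of 21.4 to 79.1 on the control arrays. Its log2 level was −4.62, −5.78 and −4.92 in controls, −2.79, −3.23 and −3.18 with X-1, and −2.76, −3.26 and −3.66 with X-3. The treated arrays were all higher, and the controls were spread over more than 1 log2 unit. The rise was 2.04 ± 0.32 (SE, limma adjusted p = 5.7e-04) with X-1 and 1.88 ± 0.32 (adjusted p = 0.00102) with X-3. With normexp background correction and an offset of 50, which compresses dim values, the log2 differences were 0.85 (adjusted p = 0.00796) and 0.75 (adjusted p = 0.0162).

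Cx3cl1, the tethered chemokine, had a log2 level of 2.74, 2.56 and 2.57 in controls, 5.43, 5.66 and 5.48 with X-1, and 5.94, 5.54 and 5.71 with X-3. Treated arrays stood apart from controls, and the treated groups overlapped each other. X-1 raised it 7.47-fold (limma adjusted p = 6.1e-07) and X-3 8.60-fold (adjusted p = 6.2e-07), with an SE of 0.14 on the log2 scale for each. Spike-in scaling took its log2 differences from 2.90 to 2.09 for X-1 and from 3.105 to 2.34 for X-3. A second, much dimmer Cx3cl1 probe was above background on 0 of 3 control, 1 of 3 X-1 and 2 of 3 X-3 arrays and was not tested.

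**Figure D2:**
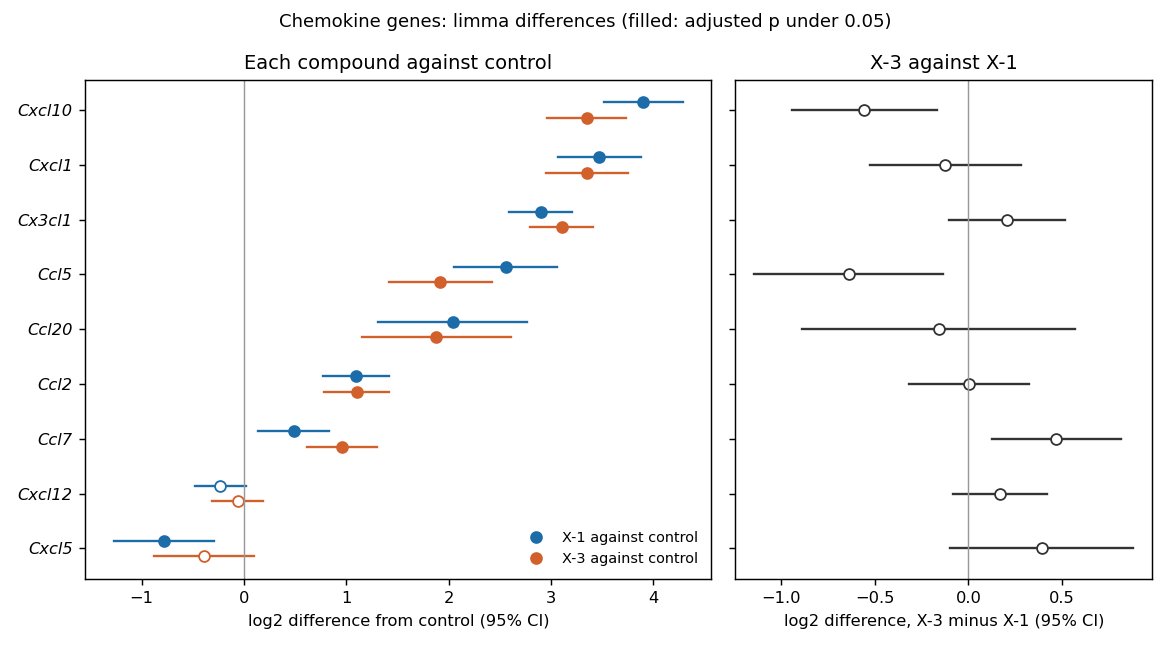
Log2 differences of 9 chemokine genes with 95% confidence intervals from limma (x axes), for each compound against control on the left and X-3 minus X-1 on the right; genes are on the y axis and filled points have an adjusted p under 0.05. The points of 7 genes are filled on the right of 0 for both compounds, Ccl7 with X-1 turning to −0.42 under spike-in scaling, and no point is filled in the right panel.

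Cxcl12, a homeostatic chemokine made by stromal cells, gave different results with its 2 probes, which were designed for different transcript variants. The brighter probe, for variant NM_001012477 (chr6:117131227-117131286, mm9, plus strand), read 4.67, 4.60 and 4.65 in controls, 4.28, 4.52 and 4.42 with X-1, and 4.65, 4.57 and 4.51 with X-3. The X-1 arrays lay just under the controls, and X-3 overlapped with them. The log2 differences were −0.23 ± 0.11 (SE, limma adjusted p = 0.107) and −0.06 ± 0.11 (adjusted p = 0.656), neither past the threshold.

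The probe for Cxcl12 variant NM_021704 (chr6:117124474-117124533, mm9, plus strand) read 4.0, 3.68 and 3.72 in controls, 2.58, 2.33 and 2.25 with X-1, and 2.86, 2.47 and 2.52 with X-3. All 6 treated arrays were lower than the controls. In a fit of all 25285 kept probes this probe fell by 1.41 ± 0.16 (SE, limma adjusted p = 9.2e-05) with X-1 and by 1.19 ± 0.16 (adjusted p = 3.0e-04) with X-3. On the same array the brighter probe exceeded the other by 0.67 to 0.93 in controls, 1.70 to 2.20 with X-1 and 1.79 to 2.10 with X-3. That gap did not overlap with control for either compound (exact two-sided permutation p = 0.1, the smallest that 3 against 3 arrays allow). The same within-array gap between the 2 probes was lower with X-3 by 0.36 for Ccl5 and by 0.40 for Ccl7 (exact permutation p = 0.1 for each), and for X-1 it overlapped with control in both genes (exact permutation p = 0.9 and 0.7). With the mean of all probes of a gene, Cxcl12 was called lower with both compounds (−0.82, adjusted p = 3.0e-04, and −0.62, adjusted p = 0.00168), and so it was under spike-in scaling (−1.07 and −0.80).

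**Figure D3:**
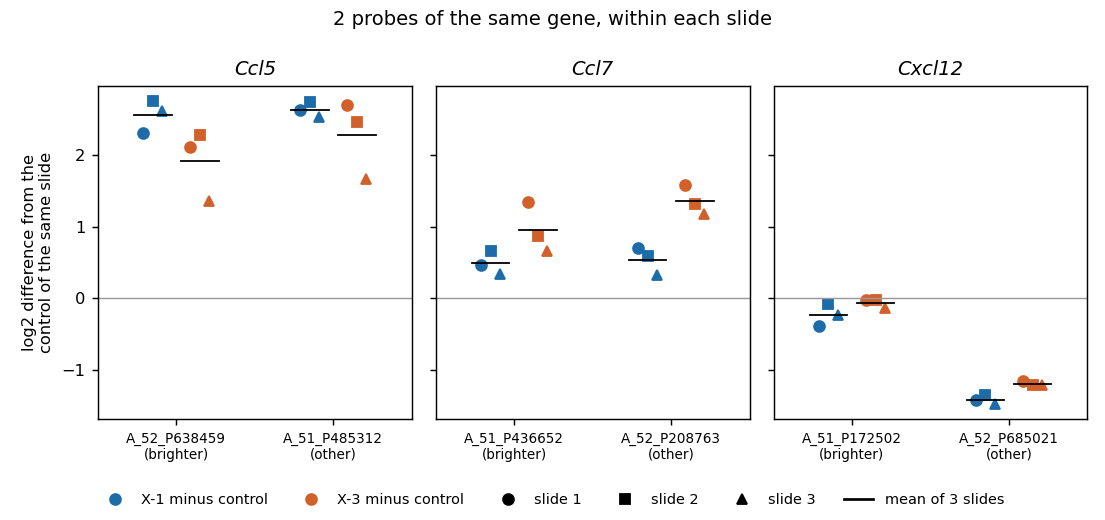
Log2 difference from the control array of the same slide (y axis) for the 2 probes of Ccl5, Ccl7 and Cxcl12 (x axis), with X-1 in blue, X-3 in orange, a shape for each slide and a line at the mean of 3 slides. The second Cxcl12 probe lies between −1.47 and −1.15 on every slide, where the brighter one lies between −0.39 and −0.02.

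X-1 and X-3 were given at the same dose and for the same time, so their direct difference was tested as 1 pair of compounds, for which the sources give no structures. Of 9 members 0 were called by limma at an adjusted p under 0.05, against 10.9% of all genes (7.2% as higher and 3.66% as lower), and 3 had an unadjusted p under 0.05, against 27.6% of all genes. Those 3 were Cxcl10, which was lower with X-3 than with X-1 by 0.56 on the log2 scale (95% confidence interval −0.94 to −0.17, adjusted p = 0.0710), Ccl5, at −0.64 (−1.14 to −0.14, adjusted p = 0.101), and Ccl7, at 0.47 (0.12 to 0.82, adjusted p = 0.0843). The arrays of the compounds did not overlap for 3 members, Ccl7, Cxcl5 and Cxcl10, against 31.2% of all genes. On the 3 slides Cxcl10 differed by −0.15, −0.60 and −0.91 and Ccl7 by 0.87, 0.21 and 0.33.

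Some of these differences between the compounds crossed the threshold under other settings. Cxcl10 was called lower with X-3 without X-3 replicate 1 (−0.70, adjusted p = 0.0196) and without slide 1 (−0.76, adjusted p = 0.00723), and Ccl5 without slide 1 (−0.86, adjusted p = 0.0360). Ccl7 was called higher with X-3 after quantile normalization (0.55, adjusted p = 0.0173), with the mean of its probes (0.64, adjusted p = 0.0161), and with its second probe alone (0.82, adjusted p = 0.00989). The intervals bound the other members: Ccl2 differed by 0.00 (−0.32 to 0.32), Cxcl1 by −0.12 (−0.52 to 0.28), Cx3cl1 by 0.20 (−0.11 to 0.52), Cxcl5 by 0.39 (−0.10 to 0.88), Cxcl12 by 0.17 (−0.08 to 0.42) and Ccl20 by −0.16 (−0.89 to 0.57).

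The bases upstream of the start site were available for 6 members, from RefSeq with build GRCm38.p6. Those of 3 genes that rose and carry NF-kB consensus matches are shown, with that of Cx3cl1, which also rose and has none in this window. They are the 250 bases before the start, 5′ to 3′ on the strand of the gene, with the NF-kB matches in capitals, from chr5:92348890-92349139 (minus strand) for Cxcl10, chr5:90890995-90891244 (plus) for Cxcl1, chr1:83116516-83116765 (plus) for Ccl20 and chr8:94771930-94772179 (plus) for Cx3cl1.
Cxcl10: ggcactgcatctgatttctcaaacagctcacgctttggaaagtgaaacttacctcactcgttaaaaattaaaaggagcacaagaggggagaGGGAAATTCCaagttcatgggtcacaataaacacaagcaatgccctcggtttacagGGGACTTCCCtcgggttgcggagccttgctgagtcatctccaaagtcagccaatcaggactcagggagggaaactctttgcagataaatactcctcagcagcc
Cxcl1: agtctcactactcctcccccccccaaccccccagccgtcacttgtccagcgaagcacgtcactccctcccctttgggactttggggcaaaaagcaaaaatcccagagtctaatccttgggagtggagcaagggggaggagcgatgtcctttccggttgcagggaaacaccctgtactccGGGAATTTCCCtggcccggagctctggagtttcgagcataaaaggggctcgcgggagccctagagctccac
Ccl20: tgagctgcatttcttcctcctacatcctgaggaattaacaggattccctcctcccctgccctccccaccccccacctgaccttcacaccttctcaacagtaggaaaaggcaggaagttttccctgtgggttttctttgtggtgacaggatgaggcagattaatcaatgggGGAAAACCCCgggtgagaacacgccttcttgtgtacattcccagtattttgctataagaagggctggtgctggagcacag
Cx3cl1: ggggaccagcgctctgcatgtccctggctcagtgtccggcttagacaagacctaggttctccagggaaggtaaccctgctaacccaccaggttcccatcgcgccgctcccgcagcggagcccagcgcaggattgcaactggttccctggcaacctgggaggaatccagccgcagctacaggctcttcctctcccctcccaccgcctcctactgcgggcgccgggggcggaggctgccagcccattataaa

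An NF-kB consensus match on either strand was found in 4 of the 6 windows (Ccl20, Cxcl1, Cxcl2 and Cxcl10), against 3.9% of 32851 promoters of the same length. The matches began 159 and 103 bases upstream of the start in Cxcl10 and 80 bases upstream in Ccl20. In Cxcl1 they began at 71 and 70 bases, and in Cxcl2 at 97 and 96, each pair being overlapping readings of 1 stretch. The interferon-stimulated response core, TTTC followed after 2 free bases by TTTC (3.0% of promoters), and the AP-1 site TGANTCA (6.7%) were each found in Cxcl10 alone among the 6, at 213 and 74 bases, the former read on the other strand. The hypoxia response core ACGTG (16.6%) was found in Cxcl1 at 196 bases, on the other strand, and the TATA box letters TATAAA (12.4%) in Cx3cl1 at 6 bases. A match is a description of the letters in this window.

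Of 26 further ligand genes 13 could be tested, and X-1 gave 5 calls higher and 5 lower, X-3 5 higher and 4 lower, with list medians of 0.20 and 0.00 and with 76.9% and 69.2% called against 56.5% and 55.7% of all genes. Cxcl9, which shares its receptor with Cxcl10, went from −6.18, −5.62 and −6.51 in controls to −0.42, −0.24 and −0.13 with X-1 and −0.10, 0.29 and −0.76 with X-3. Only 1 of the 3 Cxcl9 controls was above background, so the gene entered the fit through the treated groups, and its log2 differences of 5.84 and 5.91 are given with no test. Ccl17, a ligand of CCR4, rose by 2.91 with X-1 and 4.04 with X-3, a difference between the compounds of 1.13 (adjusted p = 0.00703) with no overlap of arrays. The other X-1 calls, named after their values were seen, were Ccl8, Ccl25 and Cxcl11 higher and Ccl6, Ccl9, Ccl11, Ccl27a and Pf4 lower. With X-3 the others, also named after their values were seen, were Ccl8, Ccl19 and Cxcl11 higher and Ccl9, Ccl11, Ccl27a and Pf4 lower. Cxcl11, above background on 1 of 3 controls, entered the fit through the treated groups. Ccl6 and Ccl11 were above background on all 3 arrays in controls only and entered through that group, where they were high. The counts and shares above include Cxcl9, Cxcl11, Ccl6 and Ccl11, whose calls are not taken as tests.

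Chemokine receptors were mostly not measurable in these cells: 6 of 23 were tested, and Cxcr4, Cxcr2, Cxcr3, Ccr2 and Cx3cr1, signalling receptors of members, were not among them. Ccr6, the receptor of Ccl20, named after its values were seen, was among them and was called with neither compound (0.11 and 0.16). It was above background on 2 of 3 control and 2 of 3 X-1 arrays and entered the fit through X-3 alone. Ackr3, a scavenging receptor for Cxcl12, read 0.78, 0.50 and 0.41 in controls, 2.90, 2.95 and 2.86 with X-1, and 1.68, 1.54 and 1.56 with X-3. The 3 groups were cleanly separated, and Ackr3 was 1.31 lower with X-3 than with X-1 (limma adjusted p = 0.00379). Spike-in scaling ended its X-3 call against control (0.38, adjusted p = 0.268). Ccrl2, an atypical receptor that presents chemerin, rose by 2.33 and 2.14, with 2 of 3 controls above background. In X-1 these 2 receptors were the calls, and 0 were lower (33.3% called, against 56.5% of all genes). X-3 had 4 calls higher and 0 lower (66.7%, against 55.7%), the other 2, named after their values were seen, being Ccr9 and Xcr1. Ccr9 was above background on 2 of 3 control and 2 of 3 X-1 arrays and entered the fit through X-3 alone. Ccrl2 entered it through the treated groups, and the calls of Ccr9 and Ccrl2 are not taken as tests.

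**Figure D4:**
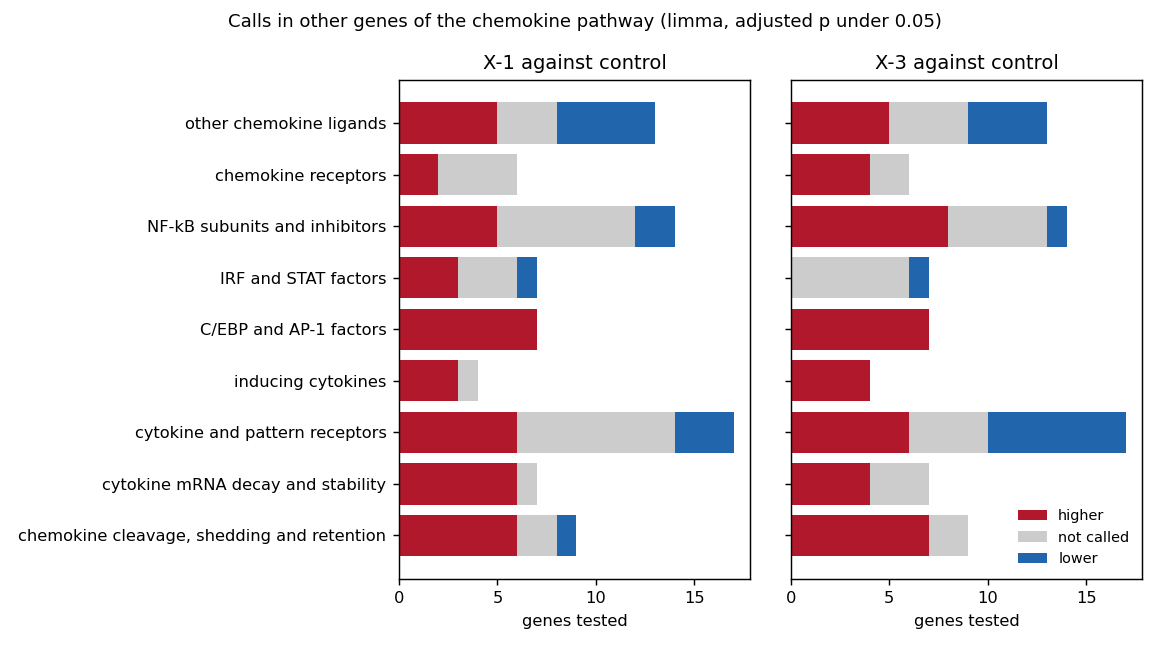
Number of genes tested (x axis) in 9 lists of the chemokine pathway (y axis) that were called higher (red), lower (blue) or not called (grey) by limma at an adjusted p under 0.05, for X-1 on the left and X-3 on the right. The 7 C/EBP and AP-1 genes are all red in both panels. Under spike-in scaling the NF-kB list changes from 5 higher and 2 lower to 2 and 7 for X-1. All 16733 genes change there from 4718 higher and 4734 lower to 1510 and 10090. The bars include genes that passed the filter only through a group where they are high, such as Cxcl9, Cxcl11, Ccl11, Ccr9, Csf2 and Ifnb1.

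The factors that act on chemokine promoters were described in 3 lists, whose shares called stand against 56.5% of all genes for X-1 and 55.7% for X-3. All 7 C/EBP and AP-1 genes tested (Cebpb, Cebpd, Fos, Fosl1, Jun, Junb and Atf3) were called higher with both compounds, with list medians of 3.33 and 3.07, and under spike-in scaling 7 remained called with X-1 and 6 with X-3. Atf3, a stress-induced member, rose by 5.07 ± 0.13 (SE, limma adjusted p = 6.0e-08) with X-1 and 4.58 with X-3, and Junb by 3.33 and 3.07. Of 14 NF-kB subunits and inhibitors, 5 were higher and 2 lower with X-1 and 8 higher and 1 lower with X-3 (50% and 64.3% called), shares near those of all genes. The named ones were Nfkbiz, an inducible coactivator of NF-kB (2.72 and 2.68), and Tnfaip3, which encodes the inhibitor A20 (2.11 and 2.18), and the other X-1 calls, named after their values were seen, were Nfkbia, Bcl3 and Ikbkb higher and Nfkbie and Ikbke lower. The NF-kB counts turn with the scaling: under spike-in scaling they were 2 higher and 7 lower with X-1 and 2 and 4 with X-3. Calls over all 16733 genes also moved to the lower side under that scaling, to 1510 higher and 10090 lower with X-1. With X-3 they were 1834 higher and 8401 lower, so the turn is not particular to this list.

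Of 7 IRF and STAT genes, 3 were higher with X-1 (Irf9, Stat2 and Stat3, the last 2 named after their values were seen) and 0 with X-3, and 1, Irf3, was lower with both, which makes 57.1% and 14.3% called against 56.5% and 55.7% of all genes. Irf3, which induces interferon beta, fell by 0.94 with X-1 (limma adjusted p = 0.00122) and by 0.89 with X-3, though its second probe gave 0.07 for X-1, and with the mean of its probes the X-1 call was lost (−0.44, adjusted p = 0.0818). Irf9 gave 0.68 (adjusted p = 0.00627) with X-1 and 0.23 (adjusted p = 0.265) with X-3, and under spike-in scaling the former turned to −0.27 (adjusted p = 0.414), and under median scaling it was 0.46 (adjusted p = 0.0536). In the direct comparison 0 of 7 were called, against 10.9% of all genes, and this was not a test of the list.

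Among 9 cytokines on the array that can induce chemokines, Tnf, Il1a, Il1b, Il17a and Ifng could not be tested for want of signal. Il6, measured on all arrays, read −4.40, −4.78 and −4.39 in controls, −0.61, −0.55 and −0.55 with X-1, and −0.93, −1.39 and −1.50 with X-3. It rose by 3.96 ± 0.18 (SE, limma adjusted p = 4.9e-07) with X-1 and 3.25 with X-3, and was 0.70 lower with X-3 than with X-1 (adjusted p = 0.0368). That difference between the compounds was not called under median scaling (adjusted p = 0.144), normexp background (0.0716), spike-in scaling (0.122), no filter on dim probes (0.109) or the 2 groups alone (0.0725). It was also lost when the control of slide 3, any X-1 array, or the X-3 array of slide 2 or 3 was left out (adjusted p = 0.0620 to 0.117). Csf2 was not well above background in any control and was at least 13.1-fold higher with X-1 and at least 13.2-fold higher with X-3. Ifnb1 was above background on the 3 X-3 arrays and on none of the others, and was at least 4.14-fold higher with X-3 than in control. Csf2 and Ifnb1 entered the fit only through the treated groups in which they were high, so their differences from control are given with no p. These bounds set the mean of the treated arrays against the lowest signal called well above background on each control array. The fourth cytokine gene tested, Il33, was 0.27 (adjusted p = 0.404) with X-1 and 0.76 (adjusted p = 0.0338) with X-3.

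Of 17 receptors for cytokines and microbial patterns, 6 were higher and 3 lower with X-1 and 6 higher and 7 lower with X-3, or 52.9% and 76.5% called against 56.5% and 55.7% of all genes. Tnfrsf1b, the second receptor of tumour necrosis factor, gave 2.75 and 2.19 (its other probe 0.66 with X-1), Il17rc, a subunit of the interleukin-17 receptor, fell by 1.86 with X-1 and by 2.03 with X-3, and Il1rap, the shared interleukin-1 receptor chain, was 1.09 lower with X-3 than with X-1 (limma adjusted p = 0.0139). The Il1rap call was lost when the X-1 or X-3 array of slide 2 or 3 was left out (−1.07 to −0.96, adjusted p = 0.0512 to 0.0574). The 5 probes of Il1rap differed widely. Of 7 genes for proteins that control cytokine mRNA decay and stability, 6 were higher with X-1 and 4 with X-3 (85.7% and 57.1% called). They include Zfp36 (2.23 and 2.22), which encodes tristetraprolin, and Zc3h12a (2.02 and 1.60), which encodes the nuclease regnase-1, both of which shorten the life of cytokine and chemokine mRNA.

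Among 9 genes for proteases that cleave or shed chemokines and proteoglycans that hold them, 6 were higher and 1 lower with X-1 and 7 higher and 0 lower with X-3, or 77.8% called in each against 56.5% and 55.7% of all genes. Adam10 and Adam17, named after their values were seen, encode the sheddases of Cx3cl1 and gave 1.23 and 1.27 with X-1 and 0.79 and 1.43 with X-3 (limma adjusted p = 0.00520 at most for X-3 and 0.00908 at most for X-1). Mmp2, which trims Ccl7 and Cxcl12, read 5.54, 5.58 and 5.61 in controls, 5.25, 5.02 and 4.84 with X-1, and 6.34, 6.08 and 6.21 with X-3. It was lower than control with X-1 by the fit (−0.54, adjusted p = 0.00771) and higher with X-3 (0.64, adjusted p = 0.00344), although spike-in scaling took the latter to −0.16 (adjusted p = 0.652) and median scaling to 0.41 (adjusted p = 0.114). Mmp2 differed between the compounds by 1.17 (adjusted p = 0.00379). Mmp13, a collagenase, gave 1.49 and 1.74, the X-1 value falling to 0.60 (adjusted p = 0.0655) under spike-in scaling, and Sdc4, a heparan sulfate proteoglycan of the cell surface, 2.75 and 1.85.

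Of the fibroblast and preadipocyte markers, Pdgfra (−1.35 and −1.33), Pdgfrb (−1.42 and −1.20) and Thy1 (−0.84 and −0.84) were called lower by limma with both compounds, and Ly6a (3.39 and 3.59), Cd34 (0.48 and 1.51) and Dlk1 (0.40 and 0.50) higher, while Col1a1, Col1a2 and Vim were not called. The leukocyte markers that moved with treatment were Cd68 (0.74 and 1.12), Csf1r (1.11 and 1.26) and Cd14 (0.85 and 1.08), all called by limma with both compounds. Cd3e, also measured on all arrays, was called with neither (−0.01, limma adjusted p = 0.941, and 0.26, adjusted p = 0.0971). Adgre1, Itgam and Ptprc were at background or above it on 1 array. In RNA from whole cultures, a change in the share of cells of 1 type and a change of RNA per cell cannot be told apart. The part of these markers in the chemokine results was not tested.

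As a description over the 9 arrays, with array, slide and treatment shared between points, the gene with the highest Pearson correlation to each member was Nup155 for Ccl2 (r = 0.998), Sod2 for Ccl5 (0.991), Rpl35 for Ccl7 (0.993), Galc for Ccl20 (0.995) and Atg2b for Cxcl1 (0.998). For the others it was Zdhhc14 for Cxcl5 (0.981), Il13ra1 for Cxcl10 (0.998), Nipal3 for Cxcl12 (0.968) and Prss56 for Cx3cl1 (0.999). Such values are common here: 1362 genes correlated with Cxcl10 and 1361 with Cx3cl1 at r above 0.95, but only 9 with Cxcl5 and 5 with Cxcl12.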

How the data were processed

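Total RNA of 9 cultures was labelled with Cy3 and hybridised to 1-colour Agilent arrays. The deposited scanner output gives the intensity of each spot, which, per the file headers, Agilent Feature Extraction had background-subtracted and spatially detrended, with no scaling between arrays. Replicate 1 was read with version 10.5.1.1 and replicates 2 and 3 with version 10.7.3.1, per the headers, and the submitters' processing notes name 9.1. The authors' deposited series table holds a score per probe that was quantile normalized and standardized within each array, as read from its values, and was used only as an alternative.

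Log2 intensity was reduced by the 75th percentile of each array over gene probes. Of 41174 probes 214 were left out because all their spots were outliers on an array, and 25285 of the 40960 others were kept because every array of some group showed them well above background. Each gene took its brightest kept probe. Two-sided tests were made by limma 3.58.1 (R 4.3.3) on all 9 arrays, adjusted over 16733 genes at a threshold of 0.05, and the procedure was tested on simulated data. Probe positions are those of the headers' mm9 design, and where they lie within transcripts was not analysed here. Promoters came from RefSeq.

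Genes were named by transcript accession, symbol or synonym in the reference table, 8055 probes keeping the file's name. The named genes were all members, from each list the 2 genes with the lowest adjusted p for X-1, list genes called between the compounds by at least 1 on the log2 scale, and the gene most correlated with each member. The members and the lists were chosen with earlier results of these data known, and some list genes are not reported here. Pairing by replicate number was checked by the correlation of deviations from group means: 0.517, 0.318 and 0.271 for X-1 and control, 0.238, 0.112 and 0.230 for X-3 and control, and −0.041, −0.182 and 0.156 for X-3 and X-1. Numbers, which are also slides, therefore paired treated and control arrays but not X-3 and X-1. Slide 1 was scanned apart from the others, with the earlier software and without spike-in RNA. Alternatives were other scalings, normexp background (on median signals, since slides 2 and 3 carry no mean signal), deposited scores, no filter, other probes, a slide block, 2 groups at a time, and leaving out each array or slide 1.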

Additional observations from a re-analysis of the deposited data

How the results depend on the processing

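Member values under the alternatives kept their side of the threshold, and where called their direction, in 170 of 183 cases for X-1. The same held in 175 of 183 for X-3 and 176 of 183 for X-3 against X-1. These counts overstate the agreement, since some cases repeat the main values. They include the brightest probe of each gene fitted by itself. The slide block, the 2 groups alone and leaving out an array of the group not compared keep each log2 difference by design and can change only its p. Values not called could change sign: Ccl2 in X-3 against X-1, 0.00 in the main fit, went from −0.19 to 0.115 over the settings. Under the alternatives 1 member call reversed, Ccl7 with X-1 under spike-in scaling (−0.42). Of the pathway genes named, Il1rap (−0.75) and Irf9 (−0.27) with X-1 and Mmp2 (−0.16) with X-3 reversed there; the cause was not tested. Values of named pathway genes that lost their call numbered 5 for X-1 and 2 for X-3, and 57 for X-3 against X-1 (Atf3, Ifnb1, Il1rap, Il6, Sdc4 and Tnfrsf1b), where 338 kept theirs or stayed uncalled. The count of members called higher stayed within 1.5 times of 7 in both comparisons with control. For X-1 the count called lower went from 1 to 2 with quantile normalization, spike-in scaling, deposited scores and the mean of probes. For X-3 it went from 0 to 2 with spike-in scaling and to 1 with the mean of probes and without slide 1, and from 0 to 1 over single arrays left out. For X-3 against X-1, 1 member was called higher with quantile normalization, deposited scores or the mean of probes, 2 lower without slide 1, and 0 to 1 lower over single arrays left out. The replicate block (slide as a term) changed no member call: Ccl7 with X-1 kept 0.49 (adjusted p = 0.0377 by limma), and it left 7 higher and 1 lower with X-1, and 7 and 0 with X-3. For X-3 against X-1, where the numbers did not pair the arrays, all genes called went from 1204 higher and 612 lower to 1150 and 649 with the block. They were 340 and 153 with median scaling, 636 and 406 with normexp, 1676 and 256 with spike-in scaling, 422 and 155 without a filter, 547 and 211 with the 2 groups alone, 2990 and 3470 without slide 1, and 484 to 1758 and 142 to 1639 with single arrays left out. Lowest were the counts without X-1 replicate 2, and the 1639 came without X-3 replicate 1. Dim probes limit Ccl20 and leave Cxcl2 unmeasured.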
